A study of Mus musculus with 32 samples.

Results

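The chromatin contacts of the Klf4 gene were mapped by Capture-C in organoids of the small intestine. They comprise every DpnII fragment that was listed with the Klf4 bait at 10 kb to 1 Mb from it in either of 2 deposited contact tables, joined by fragment number. There were 121 such fragments among 30435 bait and fragment pairs of all 14 baits, 117 in the control-named table, 119 in the IFNγ-named table and 115 in both. They held 4059 reads, of which 2108 were in the control-named table.

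Klf4 is a zinc-finger transcription factor of the Krüppel-like family. In the intestinal epithelium it is known from post-mitotic cells of the villus and from goblet cells, where it restrains proliferation and takes part in goblet cell maturation. In embryonic stem cells it belongs to the naive pluripotency network, and enhancers of the gene there lie downstream of its 3′ end. In a contact map, reads join a chosen bait to the fragments that lay close to it in the nucleus, and their number falls with distance along the chromosome.

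In Capture-C, fixed chromatin is digested, here with DpnII, which recognises GATC. Neighbouring ends are then joined, and junctions that contain a bait are pulled out and sequenced. The organoids, epithelial cultures grown from intestinal stem cells, came from aged C57BL/6JRj mice and the labels name no engineered allele. One group received the cytokine interferon gamma (IFNγ) for 3 hours, at 500 pg/ml in growth medium, and the control group had plain growth medium over that time. Each group had 4 libraries, from 2 mice with 2 passages each, and the groups shared mice and passages. Passages 2 and 3 came from the first mouse and passages 4 and 5 from the other, so mouse and passage cannot be told apart. The 32 sequencing samples were these 8 libraries on 4 lanes each. The 4 libraries of a group from 2 mice are not 4 animals, and p-values that count libraries can be too small for that reason. The contact data carry no expression, so the cell types in the organoids could not be checked against markers.

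It is not settled which of the tables is the treated one. By the sample descriptions, the IFNγ samples belong to the control-named table and the control samples to the IFNγ-named one, opposite to the file names. Neither table is assigned to a group here, and each difference is given as IFNγ-named minus control-named. The sign turns if the subtraction is made the other way. The libraries held 23037 to 37290 reads over all baits, of which 1146 to 1979 belonged to the Klf4 bait, or 4.59% to 5.69% of the library.

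The Klf4 bait is a fragment of 673 bp on chromosome 4 (build mm10) from 55531324 to 55531996. Klf4 (ENSMUSG00000003032.8) is on the minus strand from 55527143 to 55532466, so the 5′ side of the gene is the side of higher coordinates. The bait lies inside the gene and overlaps 1 of 3 annotated transcription start sites, that of a short transcript at 55531770, and ends 470 bp from the start site at 55532466. It includes intronic sequence, 1 whole exon and part of another.

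The sequences below are of the bait and of the fragments on which the results turn: 3 of the 5 with the most reads and the 2 whose reads were spread most evenly over the 8 libraries among the 14 with 3 or more reads in each. Each is read from the plus strand of the mm10 reference from the first base of the fragment, up to 300 bases. Capitals mark the DpnII site GATC. The bait stretch shown is intronic, and the other 5 stretches lie outside annotated genes.
Klf4 bait, chr4:55531324-55531623: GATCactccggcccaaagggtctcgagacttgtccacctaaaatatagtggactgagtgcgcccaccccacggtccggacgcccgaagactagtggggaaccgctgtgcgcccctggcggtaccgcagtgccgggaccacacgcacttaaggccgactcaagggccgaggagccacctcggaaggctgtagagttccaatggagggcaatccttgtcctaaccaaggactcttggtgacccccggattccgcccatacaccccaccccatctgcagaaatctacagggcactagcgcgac
5′ 133.0 kb, chr4:55664521-55664820: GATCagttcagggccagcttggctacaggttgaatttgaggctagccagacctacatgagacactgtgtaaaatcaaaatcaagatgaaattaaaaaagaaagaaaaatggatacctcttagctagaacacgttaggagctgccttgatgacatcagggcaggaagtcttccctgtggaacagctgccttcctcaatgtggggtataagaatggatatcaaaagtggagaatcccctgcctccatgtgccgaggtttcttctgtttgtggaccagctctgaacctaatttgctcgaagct
5′ 110.1 kb, chr4:55641729-55641832: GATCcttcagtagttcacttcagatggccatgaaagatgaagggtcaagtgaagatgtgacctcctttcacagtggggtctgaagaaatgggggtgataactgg
5′ 353.7 kb, chr4:55885107-55885406: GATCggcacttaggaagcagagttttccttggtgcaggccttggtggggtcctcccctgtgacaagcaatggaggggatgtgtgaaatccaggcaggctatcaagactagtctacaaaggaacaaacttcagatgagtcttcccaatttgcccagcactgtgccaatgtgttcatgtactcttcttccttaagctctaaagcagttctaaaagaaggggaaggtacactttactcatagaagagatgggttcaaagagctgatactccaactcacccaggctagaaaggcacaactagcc
5′ 328.3 kb, chr4:55859837-55860069: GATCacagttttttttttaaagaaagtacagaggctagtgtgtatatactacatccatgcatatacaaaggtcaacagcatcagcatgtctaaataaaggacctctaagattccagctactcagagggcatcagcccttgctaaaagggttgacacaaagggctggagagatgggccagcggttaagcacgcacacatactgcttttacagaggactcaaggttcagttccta
3′ 50.4 kb, chr4:55481089-55481388: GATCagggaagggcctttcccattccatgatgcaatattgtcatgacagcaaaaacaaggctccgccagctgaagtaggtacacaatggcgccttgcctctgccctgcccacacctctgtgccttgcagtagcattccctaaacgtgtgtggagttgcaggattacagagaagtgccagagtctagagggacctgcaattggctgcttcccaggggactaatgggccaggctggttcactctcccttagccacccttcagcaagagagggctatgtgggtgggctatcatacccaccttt

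No stretch above holds TTCNNNGAA, the core that STAT factors bind, or the core of the CTCF motif, the binding motif of an insulator protein, on either strand. TTCNNNGAA reads the same on both strands. In windows of 300 bp centred on each fragment, TTCNNNGAA occurred at 10 of the 121 Klf4 fragments (8.26%) and at 482 of 3928 DpnII fragments available at the same distances (12.3%). The CTCF core occurred at 3 of 121 (2.48%) and at 56 of 3928 (1.43%). Its 3 fragments lay 35.3 kb and 120.0 kb on the 3′ side and 831.0 kb on the 5′ side, with 8, 47 and 54 reads. The fragments with reads had a median length of 448 bp against 367 bp for those without, and a median GC content of 44.9% against 42.6%. Repeats made up over 50% of the fragment in 7.44% of those with reads and in 19.2% of those without.

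The neighbourhood of Klf4 is unequal. On the 3′ side lie the only other protein-coding genes within 1 Mb, Rad23b at 55350043 to 55392237, which encodes a DNA repair and proteasome shuttle factor, and Zfp462, a zinc-finger gene at 54945048 to 55083563. The 5′ side has no other protein-coding gene within 1 Mb. The next one, Actl7b, an actin-like gene, begins 1207.5 kb from the end of Klf4. The annotation places 28 genes of any kind in the range, among them 10 lincRNAs, 4 on the 5′ and 6 on the 3′ side. The sides are alike in the number of fragments that could be contacted, with 1963 available DpnII fragments on the 5′ and 1965 on the 3′ side. They are less alike in repeats. Fragments that were mostly repeat made up 16.3% of those available on the 5′ side and 21.4% on the 3′ side. Whether this takes part in the division of reads between the sides was not tested.

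The first question was how Klf4 contacts were divided between the sides. The 5′ side held 78 of the 121 fragments and 2737 of the 4059 reads. In the control-named libraries 1 to 4 it held 64.9%, 68.1%, 61.5% and 68.3% of the Klf4 reads at 10 kb to 1 Mb. In the IFNγ-named libraries it held 74.4%, 68.4%, 64.8% and 68.5%. Each library thus had most of these reads on the side without coding genes, and the tables overlapped. The share averaged 65.7% ± 3.19 (SD, n = 4 libraries) for the control-named table and 69.1% ± 3.99 (SD, n = 4) for the IFNγ-named one, a difference of 3.37 percentage points with a two-sided exact permutation p of 0.171. It was 1.58 points without library 1 of the IFNγ-named table, 1.99 points without library 3 of the control-named table, 5.56 points at 20 to 500 kb and 0.096 points with each fragment counted once per library. Over all 8 libraries the share exceeded 50% by 17.4 points, with an exact sign-flip permutation p of 0.00781, the smallest that 8 libraries can give. Without the fragments of which 1 library held over 50% of the reads, the excess was 10.6 points (exact sign-flip permutation p = 0.0156) and the difference between tables was -5.53 points. The direction of the difference between tables therefore turns with that choice.

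**Figure D1:**
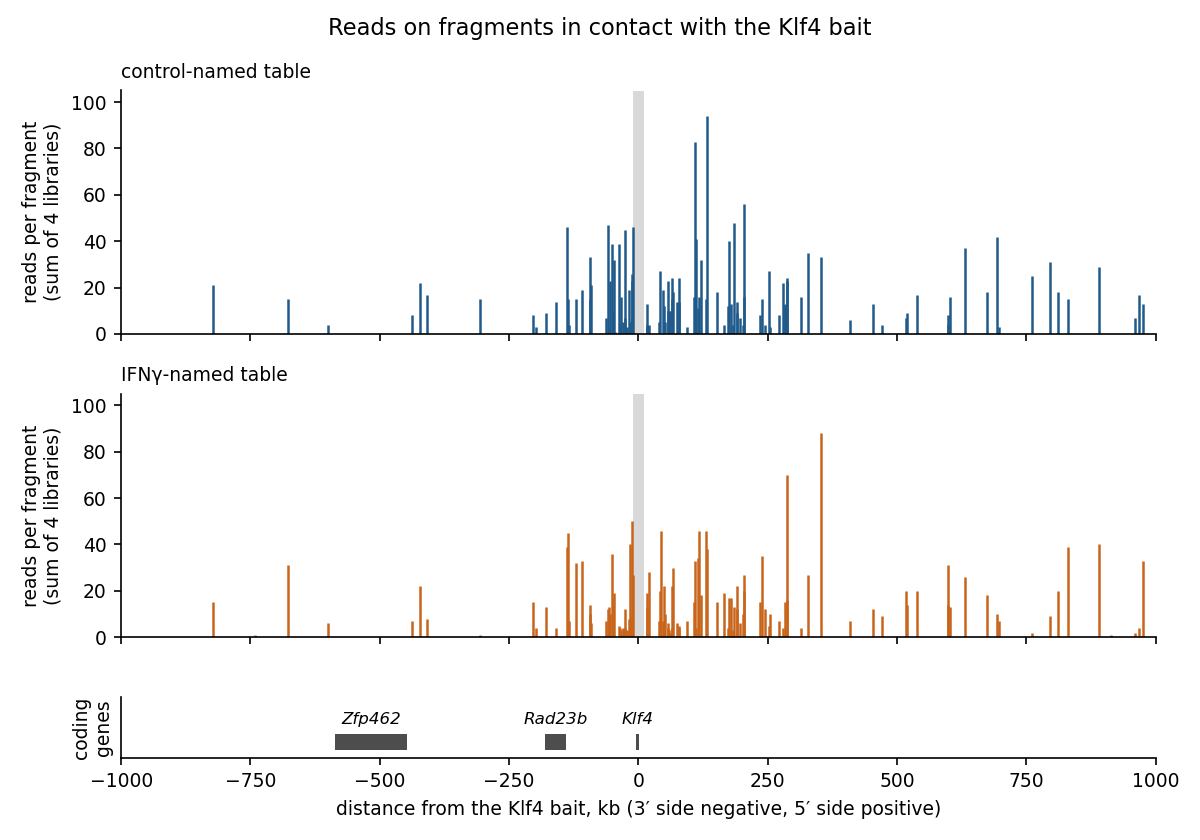
Reads per fragment, summed over the 4 libraries of a table, against signed distance from the Klf4 bait in kb, with the coding genes below. The grey band covers the 10 kb on each side that were left out. Reads reach past 500 kb on the 5′ side, where no coding gene is drawn, in both tables.

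The division between sides changed with distance. At 10 to 50 kb the 3′ side held more reads, 13.0% ± 4.52 of the library's Klf4 reads in range against 5.93% ± 3.53 on the 5′ side (SD, n = 8). The 5′ share was higher in 2 of 8 libraries, and the mean difference, 5′ minus 3′, was -7.03 points (exact sign-flip permutation p = 0.0313, Benjamini-Hochberg adjusted p = 0.0391 over 5 classes). The call was lost, with an adjusted exact permutation p of 0.0781, without any 1 of the 4 control-named libraries or without library 1 or 3 of the IFNγ-named table. It held at 0.0391 without library 2 or 4 of that table. Counting each fragment once in each library that held 20% or more of its reads, an alternative chosen after seeing the data, gave -1.93 points (adjusted exact permutation p = 0.750). Without the fragments of which 1 library held over 50% of the reads, the difference was -5.58 points (adjusted exact permutation p = 0.00977). With each fragment counted once per library it was -7.13 points. At 50 to 100 kb the sides held 7.19% ± 3.00 on the 5′ and 7.18% ± 2.43 on the 3′ side, a difference of 0.011 points with an adjusted exact permutation p of 0.992. With each fragment counted once per library the difference was 3.08 points, higher on the 5′ side (adjusted exact permutation p = 0.00781). As 89 of the 121 fragments had reads in all 8 libraries, this counting gives each library nearly the same list. The p is therefore not evidence from 8 separate libraries.

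From 100 kb outwards the 5′ side held more. At 100 to 250 kb its share in the control-named libraries was 17.0%, 36.5%, 20.1% and 32.4%, and in the IFNγ-named libraries 24.1%, 30.3%, 15.4% and 24.4%. On the 3′ side the same distances held 6.36%, 6.49%, 6.86% and 5.44%, and 8.85%, 13.4%, 6.51% and 7.81%. The 5′ value was the higher one in each of the 8 libraries, and no 3′ value reached the lowest 5′ value. The mean differences were 17.3 points at 100 to 250 kb, 10.4 points at 250 to 500 kb and 13.99 points at 500 kb to 1 Mb, each in 8 of 8 libraries with an adjusted exact sign-flip permutation p of 0.0130. These tests by distance were chosen after the values had been seen. Counted by the 20% share, they were 11.2, 9.49 and 13.9 points, with adjusted exact permutation p-values of 0.0781, 0.0781 and 0.0391. Without the fragments dominated by 1 library, the difference at 250 to 500 kb was 4.92 points, less than in the full set, with an adjusted exact permutation p of 0.00977.

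Per fragment available, the 3′ side had fewer reads in each class farther out, with 725.7 reads per 100 fragments at 10 to 50 kb, 299 at 50 to 100 kb, 107 at 100 to 250 kb, 19.3 at 250 to 500 kb and 9.55 beyond. The 5′ side had 344, 281 and 359.7 reads per 100 fragments in the first 3 classes, then 98.3 and 65.5. Summed over libraries, its class at 100 to 250 kb lay above the class at 50 to 100 kb, but this was so in only 4 of the 8 libraries, 2 and 4 of each table. The class at 100 to 250 kb held 24 of 295 available fragments with 1061 reads, while the 3′ class at the same distance held 9 of 304 with 325 reads.

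**Figure D2:**
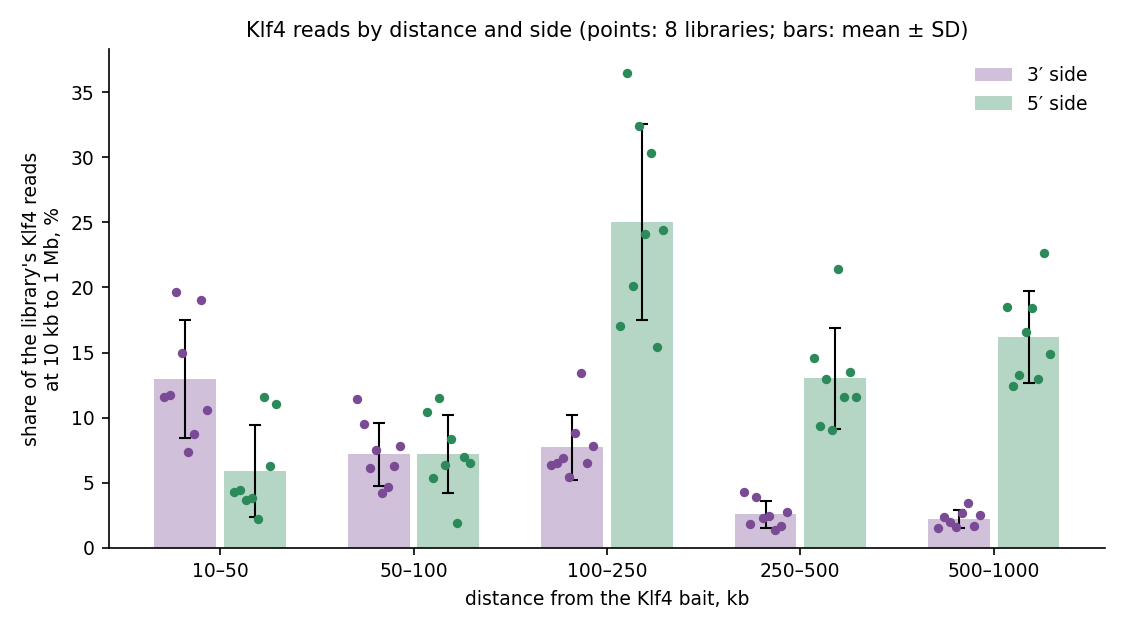
Share of each library's Klf4 reads at 10 kb to 1 Mb, in percent, by distance from the bait in kb and by side. Points are the 8 libraries and bars the mean ± SD. From 100 kb outwards all 5′ means are above the 3′ means, by 10.4 to 17.3 points, and at 10 to 50 kb the 3′ mean is above, 13.0% against 5.93%.

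The coding neighbours held few of the reads. Rad23b had 2 fragments with reads among 74 available (2.70%), 159.8 kb and 179.5 kb from the bait, with 18 and 22 reads. That share was near the 2.96% of the whole 3′ class at 100 to 250 kb. The stretch between Rad23b and Klf4 had 31 of 260 fragments with 1059 reads. The stretch between Zfp462 and Rad23b had 6 of 541 with 130 reads, and the stretch beyond Zfp462 had 4 of 813 with 93 reads. Zfp462 itself had no read over 277 available fragments in any of the 8 libraries. It lies across the 3′ classes at 250 to 500 kb and 500 kb to 1 Mb. There only 0.772% and 0.411% of available fragments had reads, so the absence does not set the gene apart. The mean share at Rad23b was 1.01% for control-named and 0.989% for IFNγ-named libraries, and its direction turned in 4 of the 8 settings that left out 1 library. None of 6 neighbourhood shares and none of 10 distance class shares differed between the tables past an adjusted exact permutation p of 0.05 (background 0% of each set). None had an unadjusted exact permutation p under 0.05 either, and the smallest was 0.0571, for the 3′ class at 100 to 250 kb, which averaged 6.29% control-named and 9.14% IFNγ-named. The share at Zfp462, without a read in any library, could not differ and was left out of the adjustment. Another of the 6 neighbourhood shares is the 5′ side share itself.

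On the 5′ side, Gm12511, a lincRNA gene at 55563265 to 55599296, held 13 of 60 available fragments with 361 reads, 178 of them control-named and 183 IFNγ-named. Its reads by library were 52, 42, 52 and 32, and 36, 80, 34 and 33. Library 2 of the IFNγ-named table was the highest, and 46 of its 80 reads came from 1 fragment 43.7 kb from the bait. Gm12506, a lincRNA gene at 55605149 to 55636901, held 4 of 66 available fragments with 77 reads. In the 5′ class at 10 to 50 kb, 9 of 73 available fragments had reads, and 12 of 97 at 50 to 100 kb. These include the fragments with reads in both genes. Whether either gene had more reads than its distance gives was not tested. Fragments outside any annotated gene were 95 of the 121 and held 3326 reads. The share of available fragments outside annotated genes is not given here, so this count shows no preference for such fragments.

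The interval from 50 to 75 kb downstream was chosen to hold the embryonic stem cell enhancers, and the mirror interval upstream was set beside it. The 3′ interval held 5.77% ± 2.41 of the Klf4 reads in range for the control-named table and 4.09% ± 1.18 for the IFNγ-named one (SD, n = 4 each). The 5′ interval held 6.05% ± 3.63 and 4.70% ± 2.66. The difference, 3′ minus 5′, was -0.44 points over 8 libraries and above 0 in 5 of them (exact sign-flip permutation p = 0.719). Counted once per library instead of by reads, the difference was -2.52 points (exact sign-flip permutation p = 0.00781), with 5 fragments on the 3′ and 8 on the 5′ side. Most of these fragments had reads in every library, so the sign was largely set by that shared list. The p is therefore not evidence from 8 separate libraries. Of the 14 fragments with 3 or more reads in every library, the one whose highest library held the smallest share of its reads lay in the 3′ interval, 50.4 kb from the bait. Its reads were 7, 11, 9 and 12 in the control-named and 6, 8, 11 and 11 in the IFNγ-named libraries. No library held more than 16% of its 75 reads, and the tables overlapped.

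The reads of most leading fragments were uneven over libraries. The fragment 133.0 kb on the 5′ side (55664521 to 55664891) had 132 reads: 11, 63, 11 and 9, and 7, 12, 4 and 15. Library 2 of the control-named table stood apart, and the other 7 libraries ranged from 4 to 15. The fragment 353.7 kb on the 5′ side (55885107 to 55885558) had 9, 11, 5 and 8, and 61, 7, 9 and 11, with library 1 of the IFNγ-named table high. The fragment 110.1 kb on the 5′ side (55641729 to 55641832) had 12, 51, 9 and 11, and 5, 10, 7 and 11.

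Library 2 of the control-named table was again the high one there, so that table's sum of 83 against 33 rests on 1 library. The fragment 287.9 kb on the 5′ side had 5, 12, 2 and 4, and 5, 52, 7 and 6. The fragment 137.8 kb on the 3′ side, which lies between Rad23b and Klf4, had 12, 19, 9 and 6, and 3, 20, 7 and 9. It was high in library 2 of both tables, and the tables overlapped. The 5′ fragment at 328.3 kb was read more evenly, with 10, 10, 9 and 6, and 9, 5, 6 and 7.

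**Figure D3:**
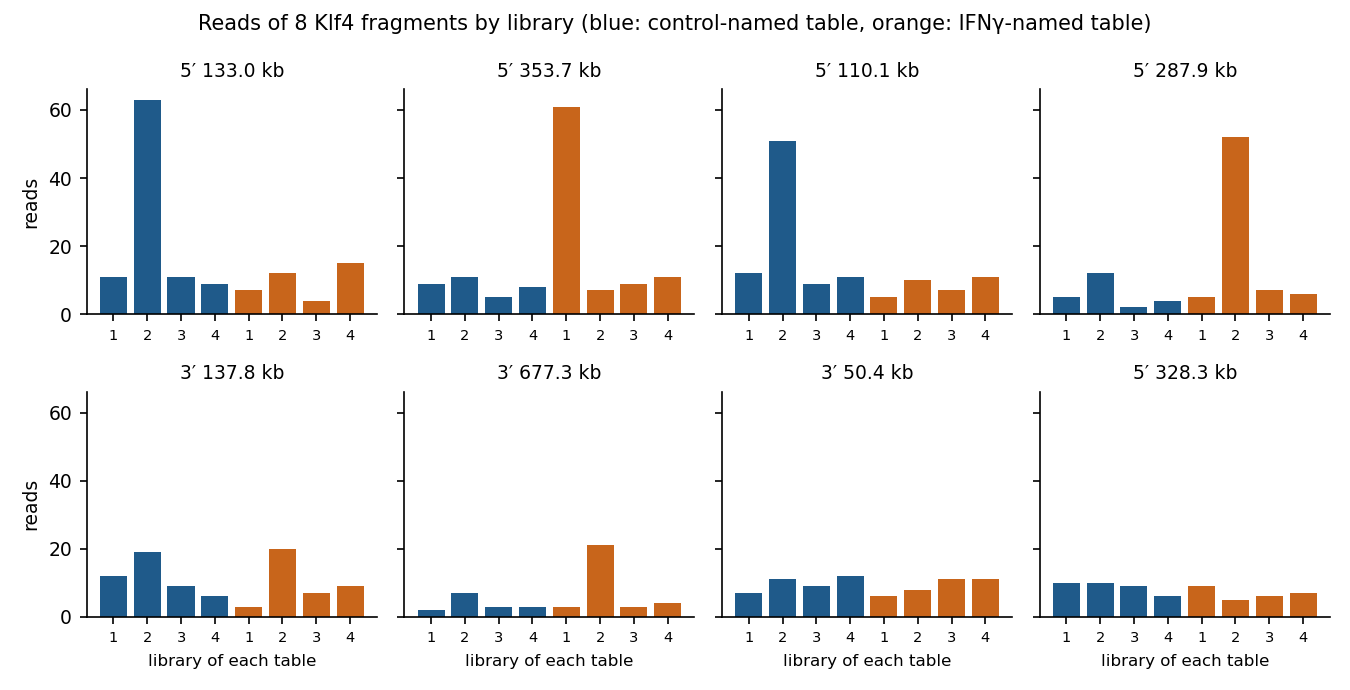
Reads of 8 Klf4 fragments in each library, 4 of the control-named table in blue and 4 of the IFNγ-named table in orange; the titles give side and distance. In 4 fragments of the upper row 1 library holds 51 to 63 reads, while the fragments at 3′ 50.4 kb and 5′ 328.3 kb stay between 5 and 12.

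The share of fragments with 1 high library was close to that over all baits. Of the 110 Klf4 fragments with 10 or more reads, 46 (41.8%) had over 50% of their reads in 1 library, against 41.6% over all baits at the same distances. Of these, 35 lay on the 5′ side, which had 78 fragments with any reads, and 11 on the 3′ side, which had 43. The 78 and 43 also include fragments under 10 reads, which could not be among the 46. Over both sides together the 46 fragments held 40.0% of the Klf4 reads in range. Without them the excess of the 5′ side over 50% was 10.6 points, against 17.4 points with them. Of the 968 counts of a fragment in a library, 310 were exactly 1. In 13 fragments 7 libraries had exactly 1 read each. The 3′ fragment at 25.9 kb, for example, had 42 reads in control-named library 3 and 1 in each of the other 7 libraries. Whether duplicate molecules or reads passed between libraries take part in such counts was not tested, and the 8 libraries may therefore not be independent.

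By contrast, 14 of the 121 fragments (11.6%) had 3 or more reads in every library, against 23.5% of fragments over all baits. A fixed cut of 3 reads depends on depth, and the baits differed in reads per fragment. Klf4 had 4059 reads on 121 fragments, Ciita_3 had 7412 on 81 and Tfcp2l1 had 1516 on 62. The part of depth in the lower share at Klf4 was not tested. Of the 14 fragments, 8 lay on the 5′ and 6 on the 3′ side. They held 1093 reads, or 26.9%. Among them were the 5′ fragments at 133.0, 110.1, 353.7, 204.0, 328.3, 538.3, 631.3 and 889.5 kb. The 3′ ones lay at 10.5, 12.4, 50.4, 135.9, 137.8 and 423.0 kb. This set was described after its values had been seen.

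The next question was whether any single Klf4 contact differed between the tables. None of the 110 tested fragments passed an adjusted p of 0.05 in edgeR's quasi-likelihood test over 3673 pairs of all baits (background 0%), and the smallest adjusted p was 0.284. At an unadjusted p under 0.05 there were 10, against 16.6% of all pairs. Of these, 3 were higher in the IFNγ-named table (7.84% of all pairs) and 7 were lower (8.71%). DESeq2 also called none, and had 1 Klf4 fragment at an unadjusted p under 0.05 against 7.46% of all pairs. The biological coefficient of variation that edgeR estimated over the pairs was 0.793. The 10 kb windows gave the same count, 0 of 63 for Klf4 of 636 in all (background 0%), with 6 at an unadjusted edgeR p under 0.05 (16.4% of all windows) and 4 in DESeq2 (9.43%).

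No overlap between the libraries of one table and those of the other was seen at 1 of the 110 fragments with 10 or more reads, against 1.23% of pairs over all baits. It was the 3′ fragment at 55.0 kb, chosen here because of its values. Its reads were 9, 6, 4 and 4 in the control-named and 1, 3, 3 and 3 in the IFNγ-named libraries. Its log2 difference was -1.05 (SE 0.57), with an edgeR adjusted p of 0.289. Without a filter on reads, edgeR called 0.552% of 30435 pairs and 1 Klf4 fragment, the one at 43.7 kb on the 5′ side, whose 46 reads all came from library 2 of the IFNγ-named table.

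**Figure D4:**
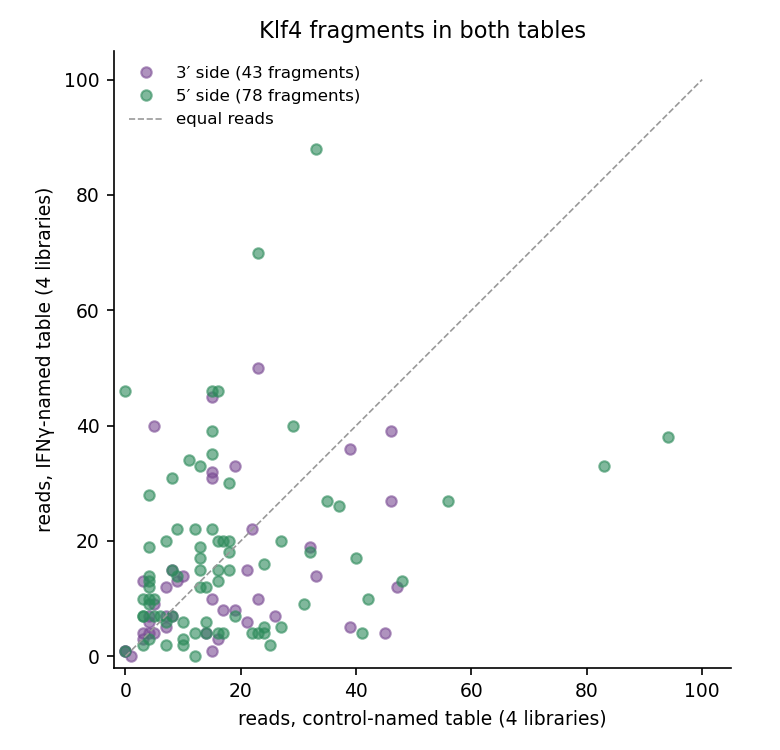
Reads of the 121 Klf4 fragments in the IFNγ-named table against the control-named table, each summed over 4 libraries and coloured by side. The dashed line marks equal reads; the points scatter widely about it, from 94 against 38 reads at 5′ 133.0 kb to 33 against 88 at 5′ 353.7 kb.

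The total of the bait did not pass the test between tables. Its log2 difference was -0.07 (SE 0.149), with an edgeR adjusted p of 0.922 over 14 baits, and restricted to reads at 10 kb to 1 Mb it was 0.16 (SE 0.176, edgeR adjusted p = 0.816). Reads at 10 kb to 1 Mb made up 29.8%, 36.6%, 25.1% and 31.6% of the bait's reads in the control-named libraries and 34.8%, 42.5%, 36.2% and 27.5% in the IFNγ-named ones. These shares averaged 30.8% ± 4.73 and 35.3% ± 6.14 and overlapped (two-sided exact permutation p = 0.286).

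The authors' contact score reached 5 at 4 Klf4 fragments in the control-named table, all on the 5′ side, and at 16 in the IFNγ-named table, 12 on the 5′ and 4 on the 3′ side. Over all baits 11.8% and 10.4% of fragments at these distances reached it. One fragment, at 5′ 133.0 kb, reached it in both, which is 25% of the first list and 6.25% of the second. The same overlap over all baits is not given here. Some fragments missed 5 narrowly in the other table, such as 3′ 137.8 kb with 4.97 control-named and 5.23 IFNγ-named. At a score of 3 or more, 69 fragments were in both lists, 75% of the control-named and 80.2% of the IFNγ-named one. The highest score on the 5′ side was 6.95, at 353.7 kb in the IFNγ-named table, where 61 of its 88 reads came from library 1. The highest score on the 3′ side was 5.49 at 677.3 kb, in a pseudogene, Gm12479, with 2, 7, 3 and 3 reads in the control-named and 3, 21, 3 and 4 in the IFNγ-named libraries. Scores rest on the 4 libraries of a table together, so 1 high library can carry one.

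Klf4 was compared, library by library, with the median of the other 13 baits, and had more of its reads in range and more of them on one side. Reads at 10 kb to 1 Mb made up 33.0% ± 5.61 of its reads against a median over the other baits of 25.4% ± 2.15 (SD, n = 8 libraries), 7.62 points more in 8 of 8 libraries (exact sign-flip permutation p = 0.00781). Counted by the 20% share, the difference was 3.62 points (exact sign-flip permutation p = 0.00781). Stat3 had a higher mean share in range, 34.3%. The distance of Klf4 from an even split was 17.4 points against a median of 7.97 over the other baits. That was 9.40 points more, in 8 of 8 libraries (exact sign-flip permutation p = 0.00781). Counting a fragment once in each library with 20% or more of its reads gave 8.00 points and an exact permutation p of 0.0547. These p-values measure how steadily Klf4 lay above the median over libraries, not how unusual it is among baits. Klf4 was not alone in holding its reads on one side. All 8 libraries lay on one side of 50% at 5 of the 14 baits, and the larger side was larger still at Ciita_2 (70.4%) and Tfcp2l1 (68.8%).

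**Figure D5:**
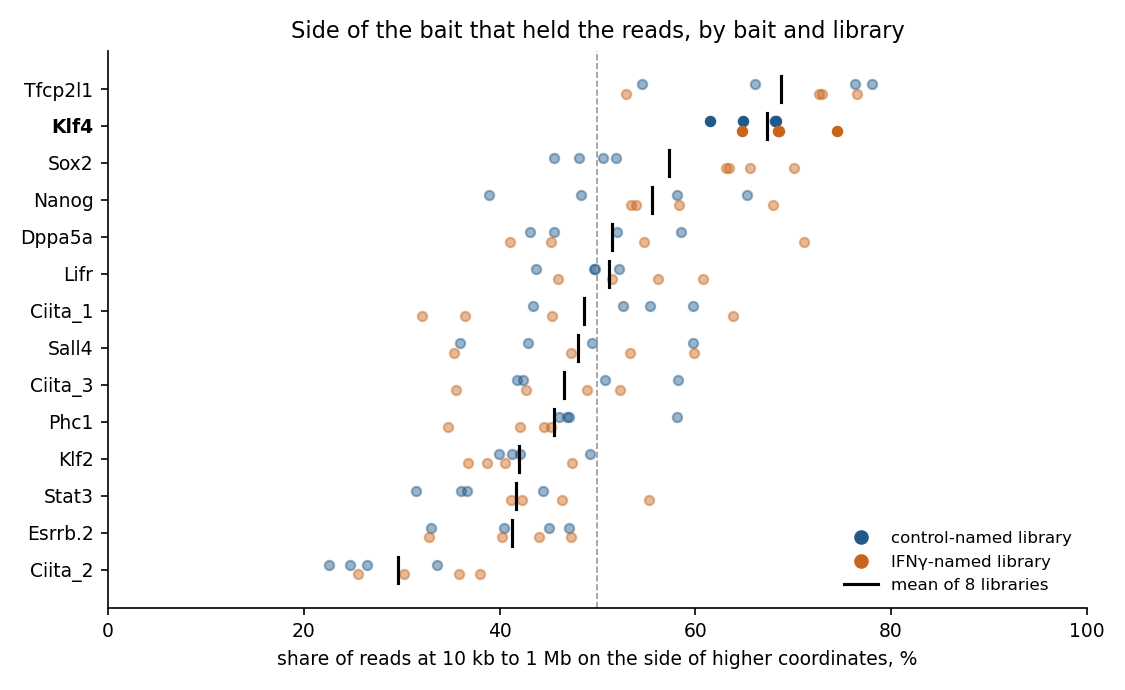
Share of each bait's reads at 10 kb to 1 Mb on the side of higher coordinates, in percent, for the 14 baits. Points are libraries, the black lines the means of 8 libraries, and the dashed line an even split. The Klf4 libraries lie between 61.5% and 74.4%, all above 50%; for Klf4 this is the 5′ side.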

How the data were processed

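Capture-C of 8 libraries from organoids of 2 mice was analysed. The authors mapped reads with Bowtie2 to mm10, per the submitters' processing notes; for versions, duplicate removal and contact caller settings, nothing is given in the sources used here. Per the file headers, each deposited table gives counts of reads in 4 library columns, a merged value and a contact score, both treated as a score, a modelled background signal, and other columns such as the signed distance. The background signal was not used. The header layout is that of the CHiCAGO caller.

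Fragments were joined by bait and fragment number, with a count of 0 where a table does not list the pair. All 28282 fragment starts lay at a GATC in the mm10 reference. Genes came from the GENCODE annotation of that build. The sequences of 2 of the 5 leading fragments are not reported here. Counts of all baits were compared with edgeR 4.0.16 (quasi-likelihood, TMM, pairs with 10 or more reads, adjusted p of 0.05) and DESeq2 1.42.0 in R 4.3.3, the edgeR test having been tested on simulated data. DESeq2 left 359 adjusted p-values as NA, and they were kept as NA. Shares were tested by exact permutation, two-sided, under Python 3.11.15, with scipy 1.17.1 installed; 4 against 4 libraries cannot give a p under 0.0286. The libraries held 23037 to 37290 reads. No source used here names molecular identifiers, so reads need not be separate molecules.

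Named were all coding genes within 1 Mb, the 5 Klf4 fragments with most reads, and the highest score on each side; others were chosen after their values were seen and are described as such or serve as examples. The members, lists and tests were chosen with earlier results of these data known. The side tests per distance class, the counting by a 20% share, the evenly read fragments and the motif windows' features were chosen after seeing the data. Of the 383 alternatives, 300 came from the first list and 83 were added.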

Additional observations from a re-analysis of the deposited data

Results flagged for a closer look

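In 5 of 56 tested groups of 4 libraries, 1 library stood well apart from its 3 companions. By chance about 1 in 20 groups would do so, or 2.8 here. All 5 were reads of single leading fragments. In library 2 of the control-named table the fragments at 5′ 133.0 kb and 5′ 110.1 kb had 63 and 51 reads, against 9 to 11 and 9 to 12 in the other 3 libraries. In library 2 of the IFNγ-named table the fragments at 5′ 287.9 kb and 3′ 677.3 kb had 52 and 21 reads, against 5 to 7 and 3 to 4. In library 1 of the IFNγ-named table the fragment at 5′ 353.7 kb had 61 reads, against 7 to 11. These fragments were named for their reads or score, which a single high library raises, so the flags are not independent of how they were chosen.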

How the results depend on the processing

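The excess of the 5′ side over 50% kept its direction and call in all alternatives run, from 10.6 to 19.3 points. Among them was the counting of each fragment once per library, at 15.2 points. That counting gives each library nearly the same list, so its call is not evidence from 8 separate libraries. Counting each fragment once per library turned the difference between tables to 0.80 points between Rad23b and Klf4. It became 0.44, 0.21 and -0.47 in the 3′ classes at 10 to 50, 50 to 100 and 100 to 250 kb. In the 5′ class at 250 to 500 kb it became -0.12. The 3′ minus 5′ difference at 50 to 75 kb moved to -2.52 (exact sign-flip permutation p = 0.00781), with a sign largely set by the fragment list that the libraries share. Without fragments dominated by 1 library, the difference between tables was -5.53 points on the 5′ side and in the 5′ desert, which are the same reads, 0.46 at Rad23b, 3.82 between Rad23b and Klf4, 1.72 in the 3′ class at 10 to 50 kb, and -0.054, 2.34 and -1.44 in the 5′ classes at 10 to 50, 50 to 100 and 250 to 500 kb; the side difference at 50 to 100 kb was -1.78. Gene bodies widened by 5 kb gave 1.26 at Rad23b. Counting libraries with 20% or more of a fragment's reads gave 0.61 at Rad23b, 2.43 and -5.25 in the 5′ classes at 100 to 250 and 250 to 500 kb, and 8.00 for the imbalance against other baits. A score of 3 gave 92 and 86 contacts, and no filter on reads gave 1 changed fragment. The bait total in range was 0.16. Leaving out 1 library gave -0.91 to 0.37 for 3′ minus 5′ at 50 to 75 kb, -6.10 to 0.39 in the 5′ class at 100 to 250 kb, -0.26 to 0.21 at Rad23b and -0.76 to 0.60 for the side difference at 50 to 100 kb. The causes of these changes were not tested. No paired analysis was possible because neither mouse nor passage is named for the count columns. The median Klf4 fragment had 27 reads over 8 libraries, and the part of depth in the absence of calls was not tested; with 20 or more reads required, edgeR also called 0 Klf4 fragments (smallest adjusted p = 0.249).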
